A study of Mus musculus with 4 samples.

Results

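Chromatin accessibility at 48 h after partial hepatectomy (PHx) was compared with that of undamaged liver at peaks of nearly equal length in both libraries. Barcodes with at least 1000 counts in peaks were kept, and peaks on the autosomes were taken from each library's own list. A peak of PHx 0 h and a peak of PHx 48 h made a pair where they overlapped each other and no second peak. Pairs were kept where the longer peak was at most 1.1 times the shorter. Of 93869 such overlapping pairs, 34483 were length-matched, from 117333 autosomal peaks at PHx 0 h and 155918 at PHx 48 h. A pair with a transcription start site (TSS) within 1 kb was called a promoter, and any other a distal element, which gave 9844 promoters and 24639 distal elements.

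The series holds 4 libraries of single-cell ATAC-Seq (scATAC-Seq), in which the Tn5 transposase cuts open chromatin and a droplet barcode marks the nucleus. The PHx 0 h library came from hepatocytes of healthy liver without surgery, and the PHx 48 h library from hepatocytes taken 48 h after an operation that takes away liver lobes and sets off regrowth. Mice of both groups were male C57BL/6J animals, 10 to 12 weeks old, on normal diet, and hepatocytes were released by collagenase perfusion. Each time point was 1 library from 1 hepatocyte preparation, so there was no replicate, no test between time points was possible, and time and library cannot be told apart.

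Hepatocytes of the adult liver are mostly quiescent and carry out metabolism, detoxification and secretion of plasma proteins. After PHx they enter the cell cycle while the liver keeps its metabolic work going, and acute phase genes respond to cytokines from other liver cells. Open promoters mark genes that are active or ready for use, and open distal elements often bind factors that set the level of nearby genes.

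The distal element with the highest ratio covered a pair of lysine tRNA genes on chr17, and their sequences are shown because they are identical. Each carries the letters GGTTCGA of the B box, the internal promoter element bound by the RNA polymerase III factor TFIIIC, printed in capitals. The n-TKctt13 gene lies at chr17:23533962-23534034 on the plus strand and n-TKctt12 at chr17:23535332-23535404 on the minus strand (GRCm38, RefSeq).
n-TKctt13: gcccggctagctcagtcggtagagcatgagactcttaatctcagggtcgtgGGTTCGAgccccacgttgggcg
n-TKctt12: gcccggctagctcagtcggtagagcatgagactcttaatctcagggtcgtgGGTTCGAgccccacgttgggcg
The letters, searched on both strands, were in 243 of 403 tRNA genes of the assembled chromosomes (60.3%). The 73-base sequence was shared by 7 of those genes, so reads inside it could not be given to 1 copy and rested on the flanking DNA.

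Promoters of 4 genes described below are shown as RefSeq windows of 300 bases on GRCm38, 5′ to 3′ on the strand of the gene. Capitals mark the letters searched on both strands. In Txnip these are CACGAG, a form of the E-box found in carbohydrate response elements, and it occurred 2 times (chr3:96557707-96558006, plus strand). It was in 6.47% of 32851 such windows.
Txnip: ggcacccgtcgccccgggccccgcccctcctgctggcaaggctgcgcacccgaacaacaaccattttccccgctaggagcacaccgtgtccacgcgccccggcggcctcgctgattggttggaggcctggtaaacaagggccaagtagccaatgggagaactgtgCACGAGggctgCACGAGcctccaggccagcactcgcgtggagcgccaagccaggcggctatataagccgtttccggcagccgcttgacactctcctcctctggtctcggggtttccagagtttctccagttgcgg
In Fasn the letters are CCAAT, the site of NF-Y, with 3 matches, of which 2 overlap on opposite strands (chr11:120824498-120824797, minus strand). They were in 37.4% of windows.
Fasn: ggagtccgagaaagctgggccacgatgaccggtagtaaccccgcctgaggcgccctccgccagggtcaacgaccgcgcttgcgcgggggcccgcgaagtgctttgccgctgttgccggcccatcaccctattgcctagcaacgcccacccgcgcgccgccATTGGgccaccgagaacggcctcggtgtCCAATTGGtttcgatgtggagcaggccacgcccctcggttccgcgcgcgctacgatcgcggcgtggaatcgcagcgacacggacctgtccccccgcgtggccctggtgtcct
For Hspd1 the letters are the heat shock element, bound by HSF1, with 2 overlapping matches in the RefSeq window that holds them, at chr1:55087883-55088182 (minus strand). This window was chosen because it held them, as did 0.603% of all windows.
Hspd1: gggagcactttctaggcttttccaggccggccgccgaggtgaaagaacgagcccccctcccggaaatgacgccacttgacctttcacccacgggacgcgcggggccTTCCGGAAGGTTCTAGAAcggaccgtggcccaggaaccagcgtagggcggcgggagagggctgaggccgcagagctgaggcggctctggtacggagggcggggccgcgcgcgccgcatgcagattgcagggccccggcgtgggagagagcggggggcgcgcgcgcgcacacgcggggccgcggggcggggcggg
For Cyp3a11 the letters CAAAGTCCA of the HNF4A site matched once (chr5:145879805-145880104, minus strand), as in 0.475% of windows.
Cyp3a11: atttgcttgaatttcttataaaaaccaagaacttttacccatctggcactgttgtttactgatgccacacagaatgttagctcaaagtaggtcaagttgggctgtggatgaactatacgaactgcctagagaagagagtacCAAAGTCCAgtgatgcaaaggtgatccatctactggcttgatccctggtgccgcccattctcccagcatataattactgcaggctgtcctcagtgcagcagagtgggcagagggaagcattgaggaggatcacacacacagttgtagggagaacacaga
A match describes the sequence and does not show that a factor was bound.

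The deposited barcodes with at least 1000 counts, called nuclei here, numbered 3977 of 4645 at PHx 0 h and 3892 of 4973 at PHx 48 h, with median counts of 26005 and 11629. The pairs held 63210400 counts at PHx 0 h and 25967112 at PHx 48 h, which was 46.8% and 42.4% of autosomal counts. Intervals below are exact 95% intervals of fragment counting (counts divided by 2) and cover counting error only. The libraries shared 758 barcode sequences, with median counts of 73857.0 at PHx 0 h and 467.5 at PHx 48 h. Of these, 612 were nuclei at PHx 0 h, 167 at PHx 48 h and 36 in both. Hepatocyte markers had summed levels of 4603.3 and 5238.1 counts per 1000000 (CPM) of all peaks at PHx 0 h and PHx 48 h, with counts at all 10 genes. Their members went both ways, as Cps1 was at 894.1 and 1405.3 and Alb at 553.0 and 819.7, but Pck1 at 743.4 and 474.2, Apoa1 at 283.0 and 190.0 and Cyp2e1 at 324.8 and 224.0. Summed endothelial markers were at 267.0 and 275.1 (9 and 10 of 10 with counts, Cdh5 at 0 in the first library) and cholangiocyte markers at 261.8 and 238.6 (5 and 7 of 8, Krt19 at 0 in both). Myeloid markers were at 171.3 and 239.5 (4 and 7 of 9, C1qa and Cd5l at 0 in both), stellate and mesenchymal markers at 72.8 and 117.6 (5 and 7 of 8, Dcn at 0 in both) and lymphocyte markers at 39.8 and 76.8 (2 and 4 of 8). Among the last, Cd79a was at 0 and 44.5 and Cd4 at 39.8 and 30.6. Clusters made within each library that were low in hepatocyte markers held 307 nuclei (7.72%) and 218 nuclei, which was 5.6% of the later library. The part of other cell types in the results was not tested beyond leaving those clusters out.

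Counts were summed per library and scaled to equal totals over the pairs, and the log2 ratio of PHx 48 h over PHx 0 h was taken with 5 added to each scaled count. Pairs with a mean scaled count of at least 200 were read, which left 8886 promoters and 14956 distal elements. A pair is said to have risen or fallen where it was at least 1.5-fold higher or lower. Among promoters 263 rose (2.96%) and 92 fell (1.04%), and among distal elements 596 rose (3.99%) and 160 fell (1.07%). The median log2 ratio was -0.05 for promoters (SD 0.28 across promoters) and 0.10 for distal elements (SD 0.29 across elements). Most pairs lay within 1.5-fold on this scaling. Scaling to equal totals over these same pairs keeps the medians near 0, so they do not measure a general change in accessibility. Scaled over all autosomal peaks, the medians were -0.19 for promoters and -0.035 for distal elements. Only 22 promoters and 13 distal elements rose at least 2-fold, and 2 promoters and 1 distal element fell as far.

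The balance of rises and falls changed with the processing. Rises made up 74.1% of promoter calls and 78.8% of distal calls here. Scaling to equal totals over all autosomal peaks shifted every ratio by -0.14 on the log2 scale, and the shares became 21.8% and 24.1%. With the median of the tested pairs set to 0 they were 58.2% and 62.7%. Of distal calls alone, rises were 22.4% with each nucleus counted once per peak (binarised) and 40.9% with a running median over count level subtracted. With barcodes shared by the libraries left out, 231 promoters rose and 92 fell, and 533 distal elements rose and 163 fell. Those barcodes held 38.9% of the counts of nuclei at PHx 0 h and 13.9% at PHx 48 h. Without them 753 of the 859 rises could be read and 583 were still called. Of the 252 falls, 246 could be read and 209 were still called. With clusters low in hepatocyte markers left out, the counts were 277 and 99 promoters and 599 and 167 distal elements. Directions below are relative to the total of the pairs.

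**Figure D1:**
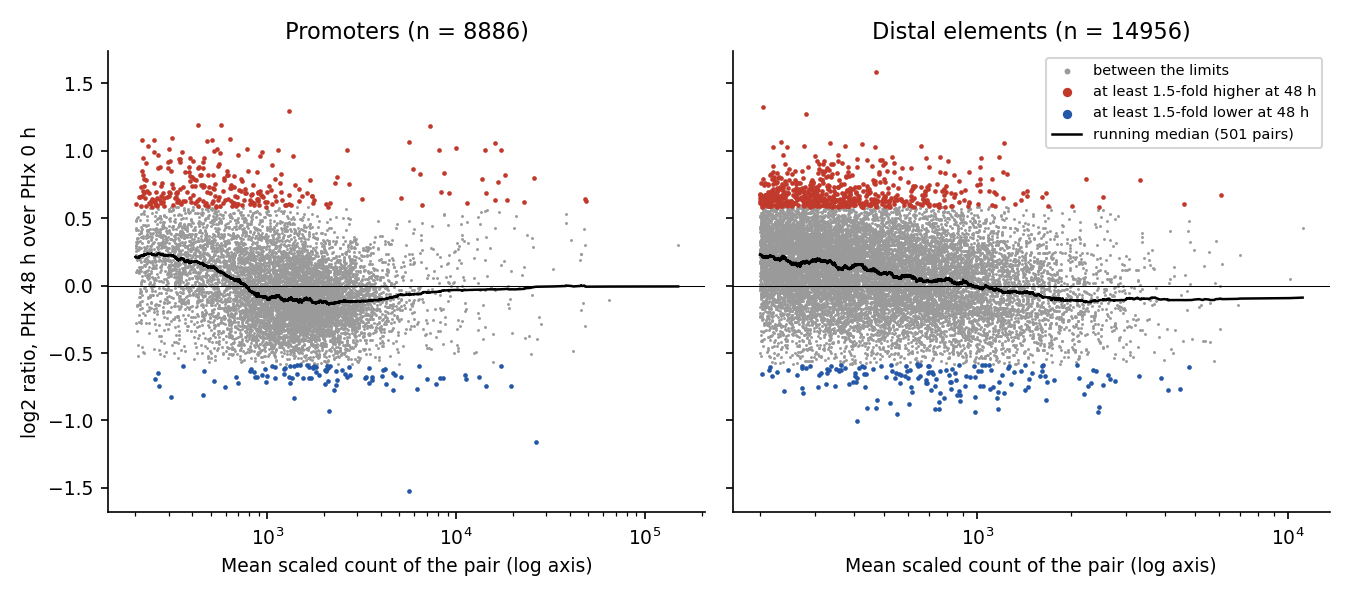
The log2 ratio of PHx 48 h over PHx 0 h (vertical axis) is plotted for each tested promoter (left, n = 8886) and distal element (right, n = 14956) against its mean scaled count on a log axis. Coloured points are pairs at least 1.5-fold higher (red) or lower (blue) at 48 h, and the black line, a running median, goes from above 0 at low counts to below 0 at higher counts.

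The largest falls at promoters were at Txnip and Fasn. Txnip, which encodes a thioredoxin-binding protein that restrains glucose uptake, was at 320.9 CPM of the pairs at PHx 0 h (95% interval 314.6 to 327.2) and at 111.2 (105.6 to 117.1) at PHx 48 h, a log2 ratio of -1.53 (-1.61 to -1.45). Fasn, the fatty acid synthase that makes palmitate, was at 1416.1 CPM (1403.1 to 1429.3) and 633.2 (619.6 to 647.0), a log2 ratio of -1.16 (-1.20 to -1.13). These peaks were long, with 10685 and 27108 bp at PHx 0 h, and the second spans the gene body of Fasn. Cluster ranges and shares of nuclei below re-read the counts that chose these peaks and are a description. For Txnip the 4 clusters with hepatocyte markers at PHx 0 h ranged from 297.3 to 379.4 CPM and the 4 at PHx 48 h from 99.3 to 122.7, and for Fasn from 1212.4 to 1569.5 and from 510.0 to 819.6. The share of nuclei with a count was 66.8% and 25.7% for Txnip and 85.5% and 57.5% for Fasn. Thinned to 5000 counts per nucleus, over the 3384 and 3023 nuclei that had as many, it was 44.0% and 16.1% for Txnip and 84.5% and 51.6% for Fasn. When binarised the Txnip ratio was -0.41, short of 1.5-fold, and that of Fasn turned to 0.39. In the other 24 of 25 settings tried both were called.

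Hal and Cpt1a also fell. Hal, the first enzyme of histidine breakdown, was at 946.4 CPM and 563.9 (log2 ratio -0.75, -0.78 to -0.71), but its clusters overlapped, from 335.3 to 1384.0 at PHx 0 h and from 418.4 to 919.6 at PHx 48 h. Cpt1a, which carries fatty acids into mitochondria, went from 242.7 to 151.3 CPM (-0.68, -0.75 to -0.61). Fatty acid oxidation and ketogenesis had 2 falls and no rise among 17 tested promoters, with a median of -0.08, where 1.04% of all promoters fell. In fatty acid synthesis 1 of 9 promoters rose and 1 fell. There Scd1, the stearoyl-CoA desaturase, went from 244.1 to 394.8 CPM (0.69, 0.64 to 0.74) against the direction of Fasn. Binarised counts turned the sign at 7 named promoters, among them Hal at 0.58 and Cpt1a at 0.013, and left others near 0. Binarised values were not matched for depth. Thinned to 5000 counts per nucleus, the share of nuclei with a count was 73.3% and 53.8% for Hal and 36.6% and 21.5% for Cpt1a. Slc25a10, the mitochondrial dicarboxylate carrier, was at 223.5 and 130.9 CPM (-0.77, -0.85 to -0.70) in a peak inside the gene, 3622 bp from its nearest coding TSS, and at -0.09 when binarised.

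Further lists had 1 falling promoter each, where 1.04% of all promoters fell. A peak of 15734 bp at PHx 48 h over Dbp, a clock output factor, also covers the TSS of Rpl18, Sphk2 and Car11, and it went from 695.5 to 415.2 CPM (-0.74, -0.79 to -0.70). Circadian clock genes had that 1 fall among 18 promoters, a median of -0.18, and 2 promoters above 0. Igfbp4, a binding protein of insulin-like growth factors, went from 538.1 to 332.8 CPM (-0.69, -0.74 to -0.65), the 1 call among 6 promoters of the growth hormone and IGF axis. Esrra, an orphan nuclear receptor of mitochondrial genes, fell from 94.1 to 60.9 CPM (-0.63, -0.74 to -0.52), and Mafg, a small Maf partner of NRF2, from 334.6 to 207.0 (-0.69, -0.75 to -0.63), among 12 NRF2 promoters with 1 rise and 1 fall. Kdm6b, a histone H3 lysine demethylase, was at 192.4 and 124.5 CPM (-0.63, -0.71 to -0.55). When binarised, the Dbp, Igfbp4 and Mafg peaks were at 0.45, 0.32 and 0.11, Kdm6b was at -0.07 and Esrra at -0.34, and none of the 5 fell past 1.5-fold. Thinned to 5000 counts per nucleus, the share of nuclei with a count was 72.9% and 47.7% for Dbp and 62.2% and 39.3% for Igfbp4. It was 47.3% and 27.6% for Mafg, 31.1% and 18.6% for Kdm6b and 16.8% and 9.50% for Esrra.

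The remaining promoters among the 10 largest falls were at Fam198a, Serpina1d and genes known only by number. Fam198a was at 107.8 CPM (104.2 to 111.5) and 56.5 (52.4 to 60.7), a log2 ratio of -0.93. Serpina1d, a copy of the alpha-1-antitrypsin gene, was at 299.2 CPM and 176.1 (-0.77, -0.83 to -0.70) but at -0.02 when binarised, and since its neighbours are near-identical copies, reads may be split among them. The promoters of Gm34474, 4930548G14Rik, 4930455J16Rik, Gm47949 and Gm44751 had log2 ratios between -0.83 and -0.75. Their levels at PHx 0 h spanned 15.2 to 109.0 CPM.

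The 10 promoters that rose most were at 5.28 to 171.4 CPM at PHx 0 h. Hist2h3c1, a histone H3 gene of the replication-dependent kind, was at 29.0 CPM (27.2 to 31) and 71.6 (67.0 to 76.3), a log2 ratio of 1.30 (1.17 to 1.44). It is 1 of several near-identical histone genes, and 1 of 13 tested histone promoters rose, with a median of -0.03, where 2.96% of all promoters rose. Slc38a1, a sodium-coupled carrier of glutamine, was at 10.0 CPM (8.94 to 11.2) and 23.1 (20.6 to 25.9), a log2 ratio of 1.19. Sox17, an endoderm and endothelial transcription factor, was at 13.2 CPM (12.0 to 14.6) and 30.4 (27.5 to 33.5), also 1.19. Dnajb1, an HSP40 co-chaperone, shares its peak of 11928 bp with Tecr and was at 171.4 CPM (166.9 to 176.0) and 390.4 (379.7 to 401.3), likewise 1.19. Over the clusters with hepatocyte markers, Hist2h3c1 ranged from 24.6 to 30.6 CPM at PHx 0 h and from 41.3 to 96.3 at PHx 48 h. Dnajb1 ranged from 165.6 to 182.7 and from 229.3 to 548.7, and Sox17 from 7.98 to 19.8 and from 17.1 to 43.0. These promoters were chosen for the size of their ratio, so the ranges are a description.

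Next in size came Esyt3, Tpbg, Zfpm2, Epdr1, B3galt1 and Fcgr3. Zfpm2, a cofactor of GATA factors, was at 5.28 CPM and 11.4 (1.08, 0.78 to 1.44). Tpbg, a membrane glycoprotein that dampens Wnt signalling, was at 15.5 and 33.2 (1.09, 0.91 to 1.29). Esyt3 went from 7.61 to 16.5 CPM, Epdr1 from 12.5 to 26.7 and B3galt1 from 6.12 to 13.1, with log2 ratios from 1.08 to 1.1. The peak at Fcgr3 (chr1:171063136-171064947) also holds tRNA genes for glutamate, glycine and aspartate, and it went from 11.8 to 25.1 CPM (1.07, 0.87 to 1.31). All 6 lay below 16 CPM in undamaged liver.

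**Figure D2:**
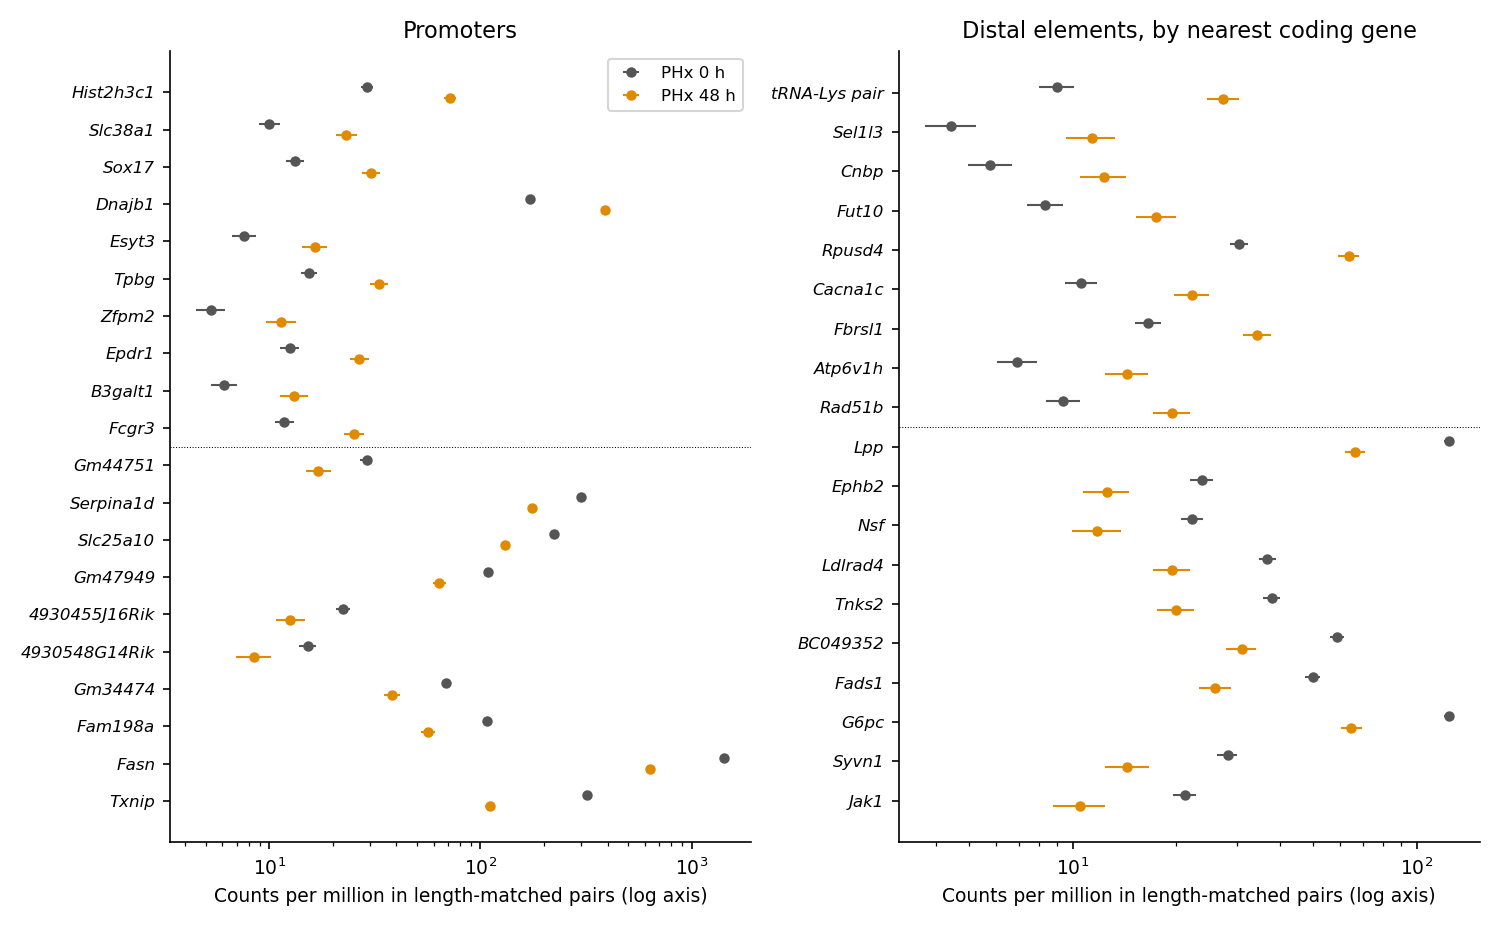
CPM of the length-matched pairs (log axis) are shown at PHx 0 h (grey) and PHx 48 h (orange) for the 10 promoters (left) and 9 of the 10 distal elements (right) with the largest rise, above the dotted line, and the 10 of each with the largest fall, below it. Bars are exact 95% intervals of fragment counting, and since the pairs were chosen for the size of their ratio, the distance between the libraries (for Txnip 320.9 and 111.2 CPM) is a description.

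Lists of secreted plasma proteins differed from each other. Of the acute phase genes, 5 had a tested promoter in 4 peaks, of which 2 rose and all 4 were above 0, with a median of 0.66, where 2.96% of all promoters rose. Hp, haptoglobin, which binds free haemoglobin, went from 206.9 to 415.6 CPM (1.0, 0.95 to 1.06) in a peak shared with Txnl4b. The shared peak of Serpina3k and Serpina3m, serine protease inhibitors, went from 160.4 to 292.7 (0.87, 0.81 to 0.93). Cluster ranges of Hp were 186.2 to 244.1 CPM at PHx 0 h and 402.2 to 442.3 at PHx 48 h. A single peak of 54263 bp at PHx 48 h over the fibrinogen genes Fga, Fgb and Fgg went from 1453.9 to 2272.8 CPM (0.64, 0.62 to 0.67). It was the 1 rise among 10 coagulation promoters. Complement had no call among 14 promoters (median 0.11) and apolipoproteins none among 8 (median -0.17, 7 below 0). Rbp4, the retinol carrier of plasma, chosen after its values were seen, fell from 524.0 to 331.1 CPM (-0.66). A peak of 34769 bp at PHx 48 h over Trf, the iron carrier transferrin, is shared with Srprb. It went from 1472.7 to 2280.7 CPM (0.63, 0.61 to 0.65), while the median of 11 iron handling promoters was -0.24. The 5 hepatocyte marker promoters that could be read (Ttr, Serpina1c, Hnf4a, Tat and Apob) lay between 0.22 and 0.55, and none reached 1.5-fold. The other 5 genes of that list had no length-matched promoter, and over all peaks Pck1, Apoa1 and Cyp2e1 were lower at 48 h, as given above.

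Xenobiotic genes moved in both directions. Cyp3a11, a cytochrome P450 of drug and steroid oxidation, went from 399.0 to 833.0 CPM (1.06, 1.02 to 1.1), with clusters from 213.3 to 707.9 and from 599.2 to 1203.7. Its peak was 32204 bp long at PHx 48 h. Ces1c, a carboxylesterase, went from 178.8 to 317.1 (0.83). Fmo5, a flavin monooxygenase that shares its peak with Prkab2, went from 487.4 to 756.2 (0.63). Cyp2d9 fell from 624.5 to 389.4 (-0.68, -0.73 to -0.64) and was at 0.34 when binarised. The list had 3 rises and 1 fall among 20 promoters (2.96% and 1.04% over all) and a median of -0.12. The median was 0.34 when binarised, with 4 rises and no fall among 19, and 0.035 with barcodes of 5000 to 30000 counts. These genes belong to families of similar copies among which reads may be split. Gsta3, a glutathione transferase, rose from 202.1 to 306.5 CPM (0.60). A peak of 26713 bp at PHx 48 h over the 3′ part of Cth, the gene of the enzyme that makes cysteine from cystathionine, rose from 365.2 to 733.7 (1.006, 0.967 to 1.046). It was the 1 rise among 20 promoters of amino acid breakdown, but it lies 10887 bp from the nearest coding TSS and was counted through a TSS of another transcript.

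Chaperone and stress genes were uneven. Besides Dnajb1, the shared promoter of the mitochondrial chaperonin genes Hspd1 and Hspe1 rose from 348.4 to 534.3 CPM (0.62, 0.57 to 0.66), and the sequence above shows its heat shock letters. The other 11 of the 13 promoters of heat shock genes did not reach 1.5-fold, and the median was -0.06, where 2.96% of all promoters rose and 1.04% fell. Dnajb9, a chaperone of the endoplasmic reticulum, rose from 152.8 to 240.0 CPM (0.65, 0.59 to 0.72), the 1 call among 11 promoters of that stress pathway.

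Fetal, progenitor and other regulators had few rises each. Fetal regulators had 2 rises, at Sox17 and Igf2, and no fall among 11 promoters, with a median of 0.25, where 2.96% of all promoters rose. Igf2, a fetal growth factor, was at 6.15 CPM and 10.4 (0.73, 0.42 to 1.08). Biliary and progenitor genes had 2 rises among 9 and a median of 0.18. Sox4, a transcription factor of biliary development, went from 21.2 to 32.3 CPM (0.60, 0.43 to 0.79), and Prom1, a progenitor surface protein, from 62.7 to 95.6 (0.61, 0.50 to 0.71). Both lay just past the 1.5-fold limit and were called in 14 and 15 of 25 settings. With shared barcodes left out neither was called (0.57 and 0.56), and none of the 9 was called with scaling over all autosomal peaks, the median set to 0 or nuclei weighted equally. Tead4, a DNA-binding partner of YAP, went from 35.9 to 56 CPM (0.64, 0.50 to 0.78), the 1 call among 14 Hippo pathway promoters, and was at 0.57 without the shared barcodes. Rnd3, an atypical small GTPase that lowers actin tension, rose from 442.3 to 890.8 CPM (1.01, 0.975 to 1.046), the 1 call among 20 cytoskeleton promoters. Tet1, an oxidase of methylcytosine, went from 21.2 to 34.7 CPM (0.70), the 1 rise beside 1 fall among 21 chromatin regulators. Esrrg, an orphan nuclear receptor, went from 13.4 to 26.9 CPM (1.0, 0.80 to 1.21), the 1 rise beside 1 fall among 21 hepatocyte identity factors. The list medians stood 0.30 (fetal regulators) and 0.23 (biliary and progenitor genes) above the median of all promoters. Over the 25 settings tried, the main one included, these differences ranged from -0.09 to 0.38 and from 0.19 to 0.40. The value below 0 came from the 6 fetal regulators left when peak lengths could differ by at most 5%, none of which rose or fell.

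Few cell cycle promoters passed 1.5-fold. Of 29 DNA replication promoters, 1 rose and none fell, with a median of -0.03. The rise was a peak assigned to Rfc4, a clamp loader subunit, and Eif4a2, which went from 33.5 to 51.8 CPM (0.63, 0.49 to 0.77). It lies 3351 bp from the nearest coding TSS, so it is not at the coding promoter of either gene. None of 23 mitosis promoters (range -0.53 to 0.24, median -0.07) and none of 17 promoters of G1 cyclins, kinases and inhibitors (range -0.36 to 0.41, median -0.04) passed 1.5-fold in either direction. The 13 promoters of immediate early and AP-1 genes also had no call (median -0.03). Against 2.96% of all promoters that rose and 1.04% that fell, lists of this size could show few calls.

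Ribosomal protein, proteasome, oxidative phosphorylation and ribosome biogenesis promoters had medians a little below that of all promoters, of which 3792 of 8886 were above 0 and 1.04% fell. Of 41 ribosomal protein promoters 37 were below 0, the median was -0.21, and 2 fell, at Rpl18 (in the Dbp peak) and Rps28. The Rps28 peak, shared with Ndufa7 of respiratory complex I, went from 33.5 to 20.3 CPM (-0.72). Of 24 proteasome promoters 22 were below 0 (median -0.22), with falls at Psmd13, a lid subunit, from 112.0 to 68.8 CPM (-0.70) and Psmb6, a core subunit, from 38.3 to 24.9 (-0.62). Oxidative phosphorylation genes had a median of -0.18 over 46 promoters, with a second fall at Ndufv3 from 46.9 to 28.6 CPM (-0.71). Ribosome biogenesis and nucleolar genes had no call among 23 promoters and a median of -0.17, with 21 below 0. Against the median of all promoters these 4 lists differed by -0.16, -0.17, -0.13 and -0.12. With a running median over count level subtracted, the differences were -0.14, -0.16, -0.08 and -0.13.

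**Figure D3:**
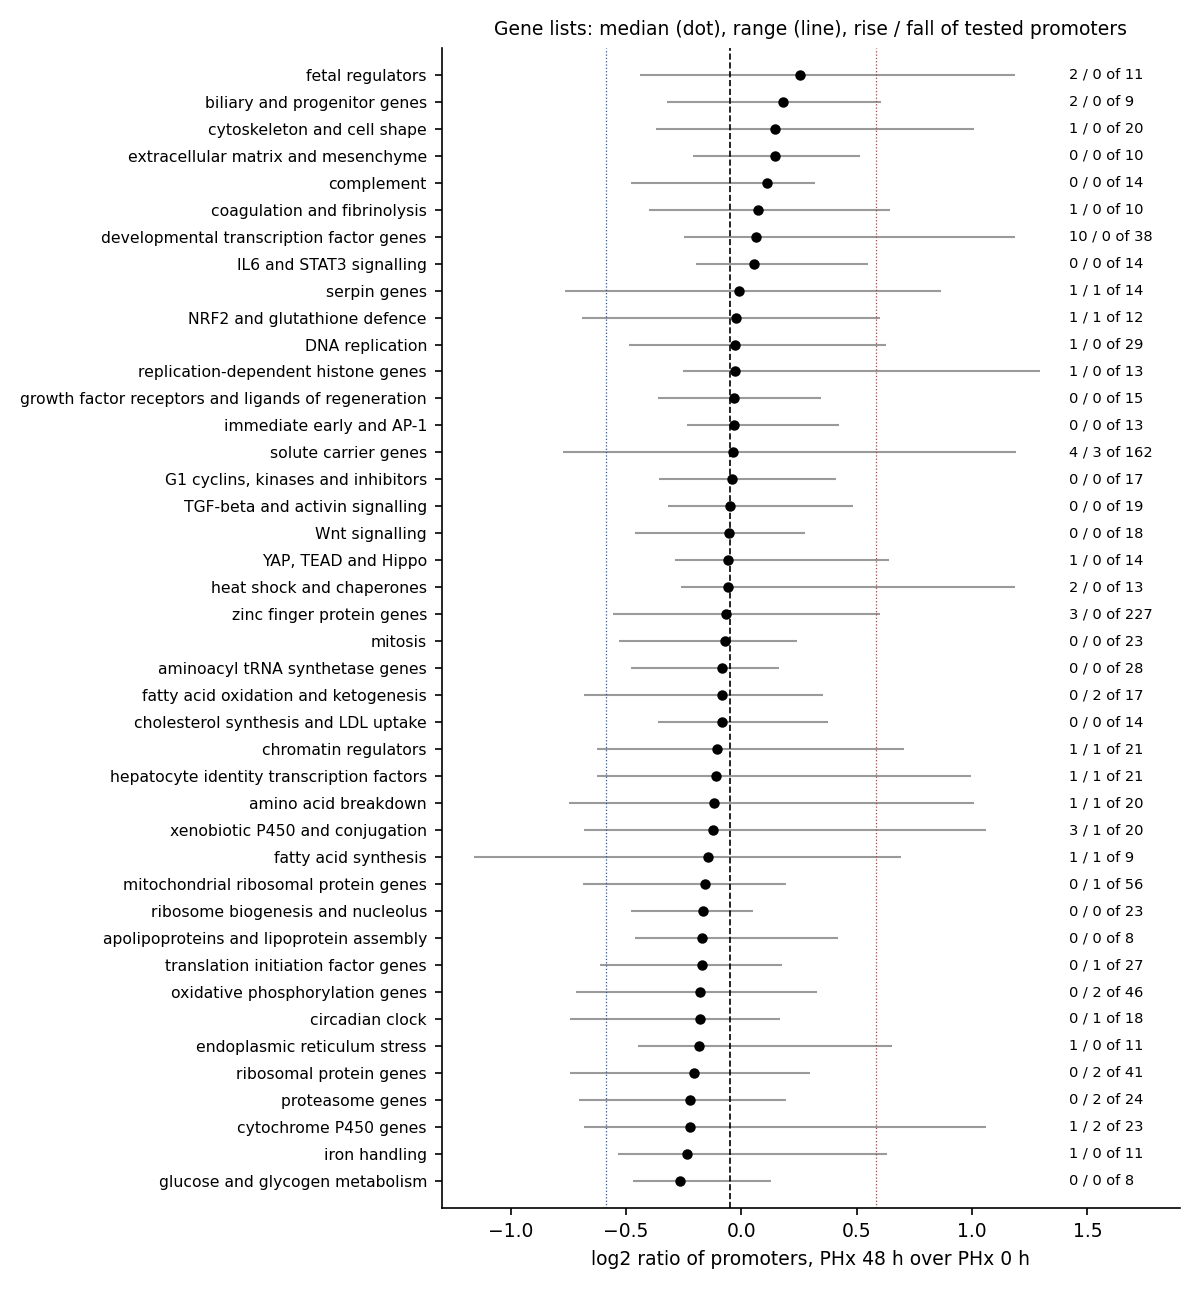
For each gene list with at least 8 tested promoters, the dot is the median and the line the range of the log2 ratio of PHx 48 h over PHx 0 h, and the numbers at the right count promoters that rose, fell and were tested. The dashed line is the median of all promoters (-0.05) and the dotted lines are the 1.5-fold limits, with fetal regulators at the top (median 0.25) and glucose and glycogen metabolism at the bottom (-0.27).

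The distal elements that rose most were mostly low in undamaged liver. The lysine tRNA element (chr17:23533885-23535502, intergenic) went from 8.99 CPM (7.97 to 10.1) to 27.4 (24.6 to 30.4), a 3.0-fold rise and a log2 ratio of 1.59 (1.38 to 1.84). Its nearest coding gene was Zfp213 at 28736 bp. An element in an intron of Sel1l3 (chr5:53165601-53166675) went from 4.43 to 11.4 CPM (1.32, 1.01 to 1.70). Another 7 of the 10 were nearest to Cnbp, Fut10, Rpusd4, Cacna1c, Fbrsl1, Atp6v1h and Rad51b, with log2 ratios from 1.03 to 1.06. Their levels at PHx 0 h were 5.77 to 30.5 CPM, and 59.1% of the element near Rpusd4 was masked as repeat.

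The distal elements that fell most lay near genes of several functions, with 1 of the 10 nearest to a gene of glucose metabolism and 1 to a gene of fatty acid synthesis. An element in an intron of Jak1, the kinase of cytokine receptors (chr4:101175341-101177131, 88142 bp from its TSS), went from 21.2 CPM (19.6 to 22.9) to 10.5 (8.79 to 12.4), a log2 ratio of -1.0 (-1.29 to -0.75). The intergenic element 2049 bp from G6pc, which releases glucose from liver (chr11:101360156-101365512), went from 123.7 CPM (119.9 to 127.7) to 64.5 (60.2 to 69.1), a log2 ratio of -0.94 (-1.05 to -0.83). Cluster ranges at G6pc were 94.4 to 154.7 CPM and 46.4 to 89.0, and the thinned share of nuclei with a count was 21.1% and 9.50%. An element 9898 bp from Syvn1, a ubiquitin ligase of the endoplasmic reticulum (chr19:6035522-6036678), went from 28.2 to 14.4 CPM (-0.95), and another 32962 bp from Fads1, a fatty acid desaturase (chr19:10148132-10149926), from 49.8 to 26.0 (-0.94). The other 6 were nearest to BC049352, Tnks2, Ldlrad4, Nsf, Ephb2 and Lpp, with log2 ratios from -0.92 to -0.90.

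Windows of 200 bases at the middle of 4 of these elements are shown on the plus strand of GRCm38, as 2 rose and 2 fell. Capitals mark the E-box CACGTG in Sel1l3 (chr5:53166070-53166269), and the AP-1 letters TGANTCA with the TEAD letters ACATTCC in Rad51b (chr12:79499084-79499283). In Jak1 (chr4:101176141-101176340) they mark CACGTG, the C/EBP letters TTGCNNAA and the FOXA letters TGTTTAC, and in Syvn1 (chr19:6035994-6036193) TGTTTAC and the nuclear receptor letters AGGTCA.
Sel1l3 intron, higher at 48 h: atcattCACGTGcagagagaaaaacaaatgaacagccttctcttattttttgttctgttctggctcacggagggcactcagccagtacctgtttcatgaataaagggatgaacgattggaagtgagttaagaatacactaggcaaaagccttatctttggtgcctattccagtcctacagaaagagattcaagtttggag
Rad51b intron, higher at 48 h: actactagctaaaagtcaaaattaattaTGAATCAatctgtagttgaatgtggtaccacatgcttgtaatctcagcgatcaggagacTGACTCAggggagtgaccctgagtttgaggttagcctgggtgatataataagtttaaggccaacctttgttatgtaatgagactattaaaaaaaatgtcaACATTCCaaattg
Jak1 intron, lower at 48 h: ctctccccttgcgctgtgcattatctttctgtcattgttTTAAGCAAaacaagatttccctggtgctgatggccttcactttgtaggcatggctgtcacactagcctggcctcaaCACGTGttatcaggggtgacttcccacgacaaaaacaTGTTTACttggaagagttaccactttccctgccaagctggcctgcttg
Syvn1, intergenic, lower at 48 h: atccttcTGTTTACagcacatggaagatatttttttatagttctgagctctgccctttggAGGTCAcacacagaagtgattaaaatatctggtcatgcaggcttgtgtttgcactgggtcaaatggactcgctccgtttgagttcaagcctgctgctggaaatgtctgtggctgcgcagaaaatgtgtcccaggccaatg

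Over all tested distal elements, the central 200 bases were searched on both strands for 23 sets of letters, which can overlap each other. CACGTG was in 14 of 160 falling elements (8.75%), in 13 of 596 rising ones (2.18%) and in 3.05% of all. The glucocorticoid receptor letters ACANNNTGT were in 13.8% of falling, 5.87% of rising and 6.95% of all elements. C/EBP letters had shares of 17.5%, 9.23% and 11.5%, and AGGTCA 22.5%, 13.8% and 17.2%, in the same order. AP-1 letters went the other way, with 5.0% of falling, 8.89% of rising and 6.92% of all elements. The sets named here are only some of the 23. At promoters the shares in falling and in all were 4.35% and 4.10% for CACGTG, and 4.35% and 3.97% for ACANNNTGT. They were 6.52% and 6.58% for C/EBP letters and 9.78% and 11.5% for AGGTCA. AP-1 letters were in 2.66% of rising promoters and 3.66% of all. These shares describe the letters, and no test was made.

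**Figure D4:**
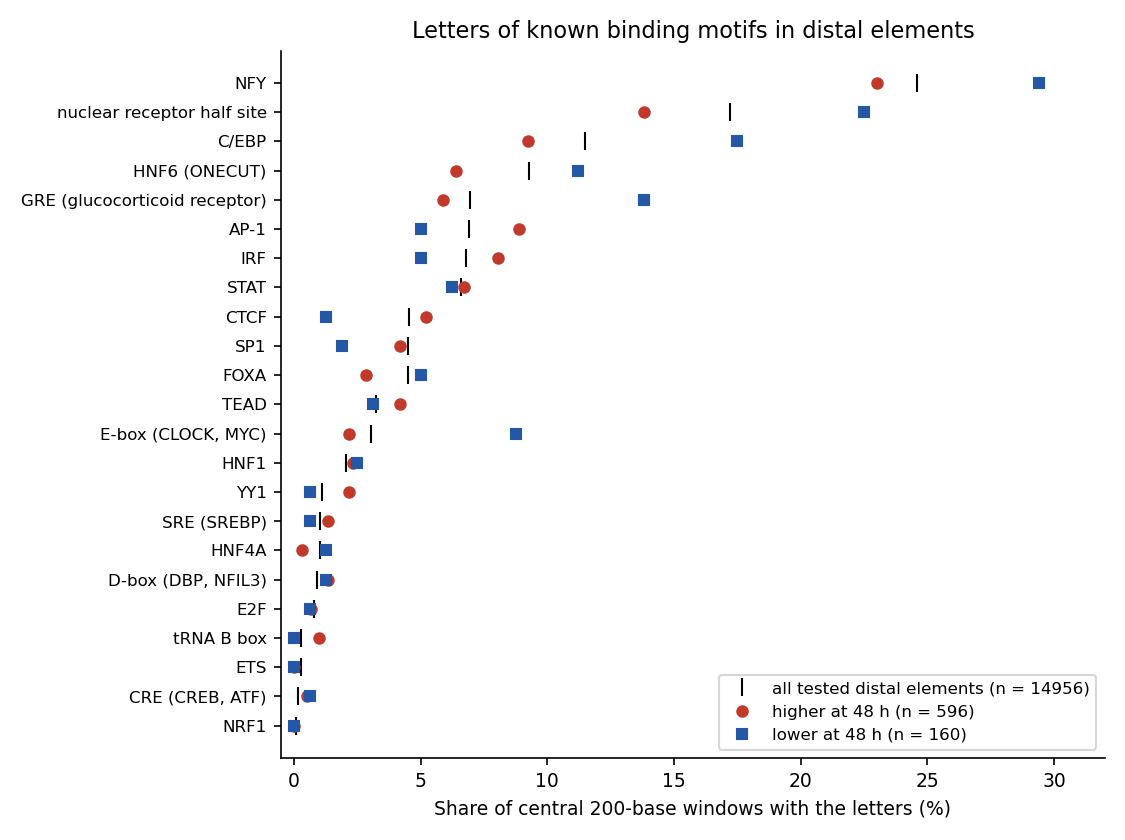
The share of distal elements whose central 200 bases hold the letters of a binding motif (horizontal axis, percent) is given for all tested elements (black tick, n = 14956), those higher at 48 h (red, n = 596) and those lower (blue, n = 160). The E-box, glucocorticoid receptor and C/EBP shares of falling elements (8.75%, 13.8% and 17.5%) lie to the right of those of all elements.

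By nearest coding gene within 100 kb, distal calls were spread over many lists, and the elements named in this paragraph were chosen after their values were seen. Elements nearest to hepatocyte identity factors had 5 rises and no fall among 80. They included 2 near Foxa2, a pioneer factor of liver (55263 and 37721 bp away, 0.78 and 0.71), and 1 in an intron at Nr5a2, a nuclear receptor of bile acid synthesis (0.68). TGF-beta and activin signalling genes had 4 rises and no fall among 55, and Wnt signalling genes 4 rises and 1 fall among 67. Amino acid breakdown genes had 5 rises and no fall among 31, while glucose and glycogen metabolism had 2 falls and no rise among 41. IL6 and STAT3 signalling genes had 2 rises and 3 falls among 52, and the falls include 2 intergenic elements 33377 and 21547 bp from Lepr, the leptin receptor gene, at -0.74 and -0.67. The shares of all distal elements called were 3.99% and 1.07%, so most of these counts were small.

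Promoters of the genes nearest to called distal elements were set beside all promoters that have such an element. Of 513 rising elements within 100 kb of a coding TSS, 280 had a tested promoter at that gene. These were 258 promoters with a median of 0.00, of which 6 rose and 1 fell. The 65 promoters beside falling elements had a median of -0.19, and 1 rose and 2 fell. Over all 3328 promoters with a distal element of this kind the median was -0.08, and 90 rose and 26 fell, and the difference from these was not tested. The promoter of Jak1 was at 263.8 and 274.2 CPM (0.06) while the element in its intron fell by 1.0 on the log2 scale.

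Pairs near tRNA genes were read as a group after the values were seen. The group includes the lysine tRNA element and the Fcgr3 peak, which were named above for their large ratios. Of 78 tested pairs within 1 kb of a tRNA gene, 9 rose (11.5%) and none fell, and the median was 0.09. The share of rises was 3.60% over all tested pairs. No test was made, and tRNA genes are repeated in the genome.

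Few calls clustered along the genome. With calls of 1 direction joined over gaps of up to 50 kb, 3 places held at least 3 rises and 2 places at least 3 falls. At chr3:51326510-51373974, around Elf2 and Mgarp, 4 of 5 tested pairs rose (median 0.69), and at chr3:79130989-79163390, near Rapgef2, 3 of 4 (0.66). The third, chr2:98662041-98667527, holds the predicted genes Gm10800 and Gm10801, where 66.7% and 48.3% of the peaks were masked as repeat, so reads there may come from many copies. At chr19:8818405-8881499, by Ttc9c, Ubxn1 and Uqcc3, all 3 tested pairs fell (median -0.68), and at chr17:33759432-33825777, by Rab11b, Rps28 and Kank3, 3 of 7.

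Technical measures moved with the ratio. Even within the limit of 1.1 times, the PHx 48 h peak was the longer in 92.0% of rising and 3.26% of falling promoters, against 50.8% of all, and in 90.8%, 11.2% and 53.6% of distal elements. Where the lengths differed by less than 2%, 44 of 3120 promoters rose and 22 fell, and 90 of 4559 distal elements rose and 24 fell. The median ratio went from 0.23 in the lowest of 5 equal groups of pairs by mean count to -0.11 in the highest for promoters, and from 0.19 to -0.09 for distal elements. Of 559 promoters with at least 60% G and C, 9.12% rose, against 2.96% of all, and of 35 such distal elements 25.7% rose. The parts of peak length, count level and base composition in the calls were not tested further than by the alternatives in the closing section.

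**Figure D5:**
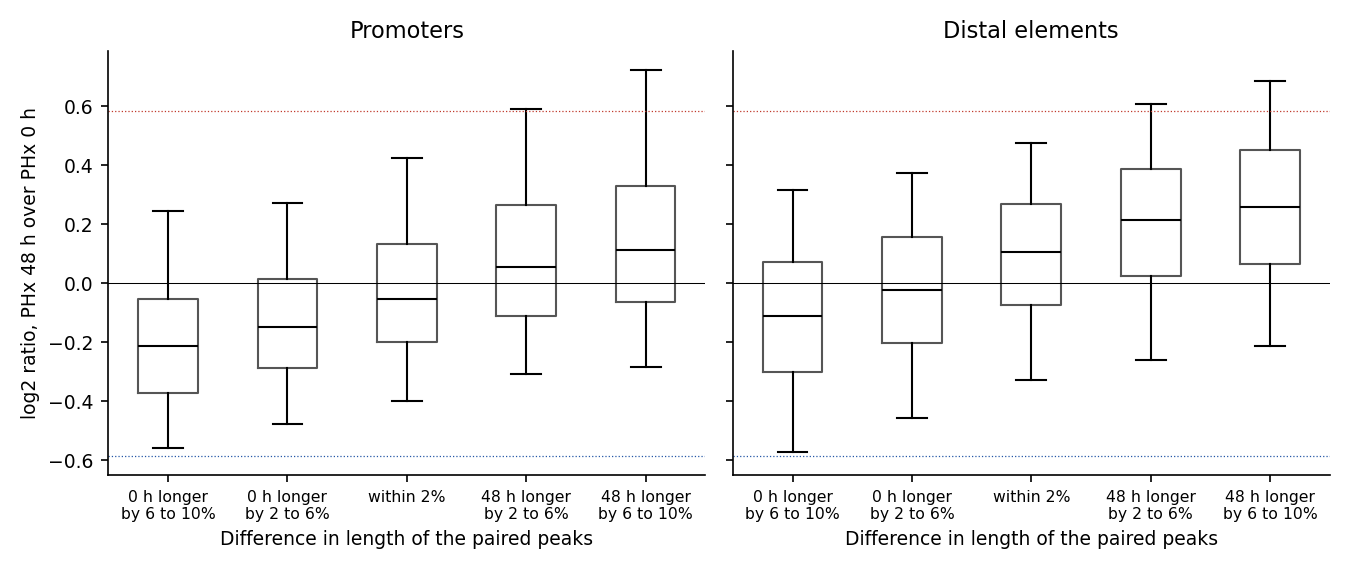
Boxes give the quartiles and median, and whiskers the 5th and 95th percentiles, of the log2 ratio of PHx 48 h over PHx 0 h for promoters (left) and distal elements (right), by how much 1 of the paired peaks was longer. The median of promoters rises from -0.21 where the 0 h peak was longer by 6 to 10% to 0.11 where the 48 h peak was, and that of distal elements from -0.11 to 0.26; dotted lines mark 1.5-fold.

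Some named peaks also had a length-matched partner in a later library, measured against the same PHx 0 h library and so not independent of the values above. Fasn had a log2 ratio of -1.16 at 48 h and -0.55 (-0.59 to -0.51) at 72 h, and Cpt1a -0.68 and -1.15. The Cth peak was at 1.01, 1.23 and 0.52 at 48, 72 and 96 h and Rnd3 at 1.01, 1.12 and 0.35. Sox17 was at 1.1 (0.81 to 1.33) and the lysine tRNA element at 1.0 (0.76 to 1.39) at 72 h, and Dnajb1 at 1.24 at 96 h. A later peak of another length gives no value here, so these series are incomplete. Each later library was scaled over its own length-matched pairs with PHx 0 h, 23704 at 72 h and 1771 at 96 h, against 34483 at 48 h. Values of different times therefore rest on different totals, and a difference between them cannot be told apart from that change.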

How the data were processed

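Hepatocyte nuclei of 4 libraries were profiled by scATAC-Seq, and the PHx 0 h and PHx 48 h libraries were compared here. Per the labels and the study's methods, the authors processed each library with Cell Ranger ATAC against mm10 (matrix headers give software version 1.1.0), and deposited counts per peak and barcode, with peaks called separately in each library. The deposited counts were not normalized. In the compared libraries 88.6% and 87.5% of values were even, as when both ends of a fragment are counted, so intervals used counts divided by 2.

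Peaks were paired, counts summed over barcodes with at least 1000 counts, and ratios taken with a pseudocount of 5, a minimum mean scaled count of 200 and a limit of 1.5-fold, in Python 3.11.15 with numpy 2.4.6, pandas 2.3.3 and scipy 1.17.1. Intervals were exact Poisson (levels) and Clopper-Pearson (ratios). The calculation of ratios was checked on simulated counts with known changes, which is not a test of the ratios reported. Nuclei were clustered within each library with scikit-learn 1.9.0, igraph 0.11.9 and leidenalg 0.10.2, and no doublet caller was run. Genes came from GENCODE, tRNA genes and promoter windows from RefSeq, on GRCm38. Figures were drawn with matplotlib 3.10.9.

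Named genes were the 10 promoters and 10 distal elements with the largest rise and the 10 of each with the largest fall, and list promoters past 1.5-fold, up to 5 per direction and list. Some genes that the rule names are not reported here. Others were chosen after their values were seen. The peak pairs, 42 gene lists and 14 gene families were chosen with earlier results of these data known. Alternatives changed the length limit, overlap, barcodes, weights, scaling, pseudocount, count minimum, fold and TSS distance. Leaving out shared barcodes and subtracting a running median were added after seeing the data. With 1 library per time point no test between time points was made. The later libraries gave side by side values only.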

Additional observations from a re-analysis of the deposited data

How the results depend on the processing

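Among the alternatives, counts of rising promoters, falling promoters, rising distal elements and falling distal elements (263, 92, 596 and 160 in the report) were 119, 40, 262 and 66 with the longer peak at most 5% longer than the shorter, 684, 257, 1640 and 535 at 25%, and 1879, 793, 4446 and 1858 with no limit. These length limits left 6026, 12400 and 15556 promoters and 9726, 23832 and 32891 distal elements to test, against 8886 and 14956 in the report. Scaling over all autosomal peaks gave 115, 412, 175 and 552, and a 2-fold limit 22, 2, 13 and 1. Counts per peak length gave 60 falling promoters and 385 rising distal elements. Barcodes of 5000 to 30000 counts gave 152 rising promoters and 222 rising distal elements, and weighting nuclei equally 179 falling promoters and 999 rising distal elements. Binarised counts gave 135 rising and 30 falling promoters and 39 rising and 135 falling distal elements. With the median set to 0, 140 promoters fell. Minimum mean counts of 50, 500 and none gave 1396, 142 and 1434 rising distal elements, and 142 rising promoters at 500. The running median, added after seeing the data, gave 226 rising and 326 falling distal elements, and left 361 of 859 rises and 178 of 252 falls called. The cause was not tested.

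Binarised counts moved 51 of the 92 peaks followed beyond their interval with no change of sign, among them Txnip to -0.412, Serpina1d to -0.022, Slc25a10 to -0.093, Kdm6b to -0.068 and Eif1 to -0.103, none of them called there, and left 18 within it. Apart from the 7 named next, the rest had no value there. A further 7 changed sign, all when binarised: Cpt1a at 0.013, Cyp2d9 at 0.34, Dbp at 0.445, Fasn at 0.39, Hal at 0.576, Igfbp4 at 0.317 and Mafg at 0.113. None of them changed sign under the other settings in which it was present. Over all calls, 15 of the 218 falls present when binarised changed sign. With each nucleus scaled to the same total, 4 of the 847 rises present did. Thinned to 5000 counts per nucleus, the share of nuclei with a count went with the ratio at all 28 named falls and 39 named rises so followed. These shares re-read the counts that chose the peaks. No paired analysis was possible because each time point is 1 library. Lower depth at 48 h widens the intervals of low elements.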

Other observations

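Promoters of developmental transcription factors, a family chosen after its values were seen, held 10 rises and no fall among 38 tested, with a median of 0.06, against 2.96% of all promoters that rose and 9.12% of those with at least 60% G and C. The rises were 5 of 36 with barcodes of 5000 to 30000 counts, 6 of 38 with nuclei weighted equally, 6 of 35 binarised, 4 of 26 with lengths within 5% and 1 of 38 at 2-fold, but 12 of 49 with lengths within 25%, and 39 of 87 beside 1 fall (median 0.46) with no limit on length. Runx2, a factor of bone formation, went from 23.7 to 46.3 CPM (log2 ratio 0.96) and Foxd3, a factor of the neural crest, from 14.9 to 28.0 (0.90). Foxc1, Foxd1, Gsx1, Hlx, Tfap2a, Sox4 and Sox17 were also among the rises. Distal elements nearest to this family within 100 kb had 10 rises and no fall among 179, against 3.99% of all distal elements that rose.

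Collagen promoters, also chosen after their values were seen, held 3 rises among 7, against 2.96% of all promoters. Col18a1, Col25a1 and Col9a2 had log2 ratios of 0.74, 0.82 and 0.74 at levels of 11.5, 12.1 and 12.8 CPM in undamaged liver. Distal elements nearest to collagen genes within 100 kb had 3 rises and 1 fall among 39, against 3.99% and 1.07% of all distal elements. The summed stellate and mesenchymal markers were at 72.8 and 117.6 CPM of all peaks in the same libraries. Their part in the values of the collagen genes and of the developmental transcription factors was not tested.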
